A study of Mus musculus with 80 samples.

Results

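Kruppel-like factor genes were described in liver nuclei of fed and fasted mice. They were the rows of the count table with the symbols Klf2, Klf3, Klf4, Klf6, Klf10, Klf11, Klf12, Klf13 and Klf15, which makes 9 genes of the 20105 listed. The study sequenced total nuclear RNA from livers of female mice of 2 lines, HEP-INTACT and MAC-INTACT, in which a tag on the nuclear envelope lets nuclei of hepatocytes or of macrophages be captured on beads. Mice were fasted from zeitgeber time 12, when the lights go off, for 3, 8, 16 or 24 h, which ends at zeitgeber time 15, 20, 4 and 12, or were fed freely and killed at the same times. Both fasted and fed mice carried the tag of their line. Each of the 16 groups of tagged nuclei (cell type by feeding by time) has 4 libraries, and each line also has 1 library of unpurified liver nuclei per condition, made from a pool of 4 mice. The promoter behind the tag is not described here.

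Kruppel-like factors are transcription factors whose zinc fingers bind GC-rich and CACCC sequences, and together with the Sp proteins they form one family. Some members recruit activators and others recruit repressors to the same kind of site, so that members can compete. In liver the family is best known through Klf15, which drives amino acid breakdown for glucose production during fasting, and through Klf10 and Klf11, early genes of TGF-beta signalling that also respond to nutrients. Klf2 and Klf4 are known from endothelium exposed to flow and from the quiescence and polarisation of macrophages, and Klf6 from the response to injury.

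RefSeq promoters (GRCm38.p6, the assembly of build mm10) were matched by symbol to 8 of the 9 members, all but Klf10. The 250 bases before each start were searched on both strands for the E-box CACGTG, which is bound by clock proteins and other helix-loop-helix factors. It stood in the windows of Klf4, Klf6, Klf11 and Klf15, 4 of 8, against 6.02% of all 32851 promoters of that length. The CACCC box, the family's own kind of site, stood in 5 of 8, against 52% of all. The window of Klf12, counted among the 8, lay within its GENCODE vM21 gene body. The cAMP response element TGACGTCA, the FoxO site TGTTTAC and AGAACA, the core of the glucocorticoid response element, stood in none of the 8, against 1.55%, 3.17% and 16.1% of all. The sequences before the earlier of the RefSeq and GENCODE vM21 starts are shown for 4 members whose levels are described in detail, to let the E-boxes be seen, with the E-box in capitals, at chr12:24651121-24651273 (Klf11, plus strand), chr13:5861239-5861481 (Klf6, plus strand), chr6:90462326-90462575 (Klf15, plus strand) and chr7:63938916-63939165 (Klf13, minus strand, in which no E-box was found).
Klf11: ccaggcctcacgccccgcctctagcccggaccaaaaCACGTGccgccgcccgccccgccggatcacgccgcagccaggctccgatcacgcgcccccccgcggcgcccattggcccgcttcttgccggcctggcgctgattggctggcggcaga
Klf6: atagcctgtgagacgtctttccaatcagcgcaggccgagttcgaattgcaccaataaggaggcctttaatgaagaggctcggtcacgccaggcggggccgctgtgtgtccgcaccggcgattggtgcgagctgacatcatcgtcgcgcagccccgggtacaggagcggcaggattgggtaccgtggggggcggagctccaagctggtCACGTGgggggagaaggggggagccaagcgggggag
Klf15: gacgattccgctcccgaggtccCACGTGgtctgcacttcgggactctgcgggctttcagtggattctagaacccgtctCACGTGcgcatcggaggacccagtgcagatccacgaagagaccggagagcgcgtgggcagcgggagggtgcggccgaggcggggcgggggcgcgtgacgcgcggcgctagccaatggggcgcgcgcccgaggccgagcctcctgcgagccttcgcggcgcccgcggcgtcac
Klf13: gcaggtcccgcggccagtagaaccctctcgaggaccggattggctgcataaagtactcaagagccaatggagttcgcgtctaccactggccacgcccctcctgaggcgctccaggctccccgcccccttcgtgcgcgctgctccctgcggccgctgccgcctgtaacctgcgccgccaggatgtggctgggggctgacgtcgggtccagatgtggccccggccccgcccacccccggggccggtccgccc

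Klf15 holds 2 E-boxes, which begin 228 and 172 bases before the start in the RefSeq table, while those of Klf11 and Klf6 begin 214 and 43 bases before theirs. These are matches of letters and say nothing of binding. Klf11 lies at chr12:24651371-24662782, Klf10 at chr15:38291464-38300711, Klf12 at chr14:99870640-100149796, Klf13 at chr7:63886351-63938915 and Klf15 at chr6:90462626-90475209 in mm10, each over its listed gene body with introns. Klf12 lies on the minus strand, and GENCODE vM21 places its start further upstream, at 100284679. The listed span of Klf12 leaves out that upstream part.

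Library totals were 12597786 to 30089561 counts in tagged hepatocyte nuclei, 14968505 to 44694933 in tagged macrophage nuclei and 13246494 to 35514304 in the pools. Levels are CPM, read counts scaled to library size, and a fasting effect is the log2 ratio of fasted to fed libraries at one time, ± its standard error. The labels do not say how many mice stand behind a tagged library, so a p-value here judges a difference against the variation between libraries. The 12 macrophage markers summed to 8120 CPM on average in tagged macrophage nuclei, against 645 CPM in the pools of that line, and the 11 hepatocyte markers measured to 7988 CPM, against 18380 CPM. Hepatocyte markers were thus lowered but not removed in the macrophage libraries. Their mean sum was higher in fasted than in fed ones, at 11530 against 6638 CPM at 3 h and 8546 against 5020 CPM at 8 h. It was 7425 against 5608 CPM at 16 h and 10910 against 8226 CPM at 24 h. Single libraries overlapped at 3 h, with 8735 to 19120 against 5064 to 8898 CPM, and at 16 and 24 h. They did not at 8 h, with 7901 to 9343 against 3925 to 6195 CPM. In tagged hepatocyte nuclei the mean sum was 22160 in fasted against 14190 CPM in fed libraries at 3 h. There it was 15640 against 14440 CPM at 8 h, 14160 against 15120 CPM at 16 h and 23730 against 20490 CPM at 24 h. In tagged hepatocyte nuclei the macrophage markers summed to 223 CPM, against 633 CPM in the pools, and the 12 endothelial markers to 217 CPM, against 1302 CPM. In tagged macrophage nuclei the endothelial markers summed to 962 CPM, against 1070 CPM in the pools of that line. There 3 of the 12 were called higher and 9 lower than in the pools. The part of endothelial RNA in the macrophage values of Klf2 and Klf4 was not tested. In bulk nuclei, fewer cells of a type and less RNA per nucleus cannot be told apart.

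The members differed widely in level between cell types. Macrophage nuclei held far more Klf2, Klf4 and Klf6 than hepatocyte nuclei, and hepatocyte nuclei held more Klf15, Klf12 and Klf11. Klf2 averaged 14.8 ± 4.51 CPM in the 32 macrophage libraries and 0.602 ± 0.278 CPM in the 32 hepatocyte libraries (SD), and the lowest macrophage library, at 4.91 CPM, lay above the highest hepatocyte library, at 1.32 CPM. The difference was 23.6-fold (log2 4.56 ± 0.14, edgeR adjusted p = 3.39e-35). Klf4 averaged 1.92 ± 0.669 CPM in macrophage nuclei and 0.214 ± 0.173 CPM in hepatocyte nuclei, and Klf6 32.9 ± 5.41 CPM in macrophage nuclei and 5.54 ± 2.20 CPM in hepatocyte nuclei. Their log2 differences were 3.25 ± 0.18 and 2.64 ± 0.08 (edgeR adjusted p = 1.17e-23 and 4.16e-35). Klf6 libraries did not overlap between the cell types, with 21.7 to 43.5 CPM in macrophage nuclei and 2.35 to 10.3 CPM in hepatocyte nuclei.

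Klf15 averaged 109 ± 46.4 CPM in macrophage nuclei and 289.6 ± 126 CPM in hepatocyte nuclei, a log2 difference of -1.39 ± 0.12 (edgeR adjusted p = 1.34e-15). For Klf12, a repressor first described at the gene of the factor AP-2 alpha, the log2 difference was -1.01 ± 0.09, and for Klf11 it was -0.49 ± 0.10 (edgeR adjusted p = 1.07e-15 and 2.21e-05). Klf13, a factor known from late activation of T lymphocytes, and Klf3, a repressor that works through the corepressor CtBP, were slightly higher in macrophage nuclei, by log2 differences of 0.54 ± 0.07 and 0.30 ± 0.05 (edgeR adjusted p = 1.67e-09 and 6.71e-07). Klf10 had 19.2 ± 4.62 CPM in macrophage nuclei and 19.6 ± 12.6 CPM in hepatocyte nuclei, and its difference of 0.13 ± 0.14 did not pass the test. In all, 5 members were higher and 3 lower in macrophage nuclei, against 41.0% and 46.4% of the 14011 genes tested. Line, series of library numbers and cell type go together in this comparison and cannot be told apart.

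Levels of different genes were compared only per length, as CPM per kilobase of the listed gene span, because nuclear RNA includes introns. In hepatocyte nuclei Klf15 stood highest at 23.0 ± 10.01 CPM per kb. Klf3 at 5.21 ± 1.85, Klf13 at 4.11 ± 2.41 and Klf12 at 3.32 ± 1.04 CPM per kb came next, with overlapping SDs. Klf10 at 2.11 ± 1.36 and Klf11 at 1.35 ± 0.852 CPM per kb overlapped each other too, followed by Klf6 at 0.622 ± 0.247, Klf2 at 0.232 ± 0.107 and Klf4 at 0.0401 ± 0.0323 CPM per kb. In macrophage nuclei Klf15 had 8.68 ± 3.69, Klf3 6.26 ± 0.706, Klf2 5.71 ± 1.74 and Klf13 5.47 ± 2.02 CPM per kb, which overlapped, and Klf6 had 3.70 ± 0.608 CPM per kb. Klf10 followed at 2.07 ± 0.50, Klf12 at 1.62 ± 0.506, Klf11 at 0.857 ± 0.396 and Klf4 at 0.36 ± 0.125 CPM per kb. Klf15 and Klf12 were lower in tagged macrophage nuclei than in the pools by log2 -1.21 and -1.20, beside a median of -1.25 for hepatocyte markers. The part of hepatocyte RNA in their macrophage levels was not tested.

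Purification separated the members along the same lines. In tagged hepatocyte nuclei, Klf2 and Klf4 were lower than in the unpurified pools of the line by log2 -2.21 ± 0.18 and -2.48 ± 0.24, and Klf6 by -0.51 ± 0.14 (edgeR adjusted p = 4.09e-13, 4.08e-11 and 0.00233). The 12 endothelial markers had a median difference of -2.55 and the 12 macrophage markers one of -2.53 in the same comparison. Klf15 and Klf12 were higher in tagged hepatocyte nuclei by 0.45 ± 0.18 and 0.29 ± 0.11 (edgeR adjusted p = 0.0356 and 0.0277), where the median of all 13463 genes was 0.12. With another scaling of the libraries (RLE) both missed the threshold, at adjusted p = 0.054 for Klf15 and 0.0525 for Klf12, and without the filter on low counts Klf15 did (adjusted p = 0.0606). In this comparison 2 members were higher and 3 lower, against 28.8% and 21.5% of all genes.

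In tagged macrophage nuclei, Klf2 was higher than in the pools by log2 2.69 ± 0.21, Klf6 by 2.02 ± 0.12 and Klf4 by 1.44 ± 0.24 (edgeR adjusted p = 9.51e-14, 8.16e-18 and 2.00e-06). Klf10, Klf13 and Klf3 were higher by 0.57, 0.34 and 0.19, so that 6 members were higher and 2 lower, against 36.2% and 40.7% of 13953 genes. The 12 macrophage markers had a median difference of 4.22, above all members. The lower members, Klf12 at -1.20 ± 0.13 and Klf15 at -1.21 ± 0.15 (edgeR adjusted p = 2.80e-10 and 6.05e-09), lay within the range of the 11 hepatocyte markers, -1.47 to -1.10. Klf11 at -0.18 ± 0.14 did not pass the test and lay outside that range.

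**Figure D1:**
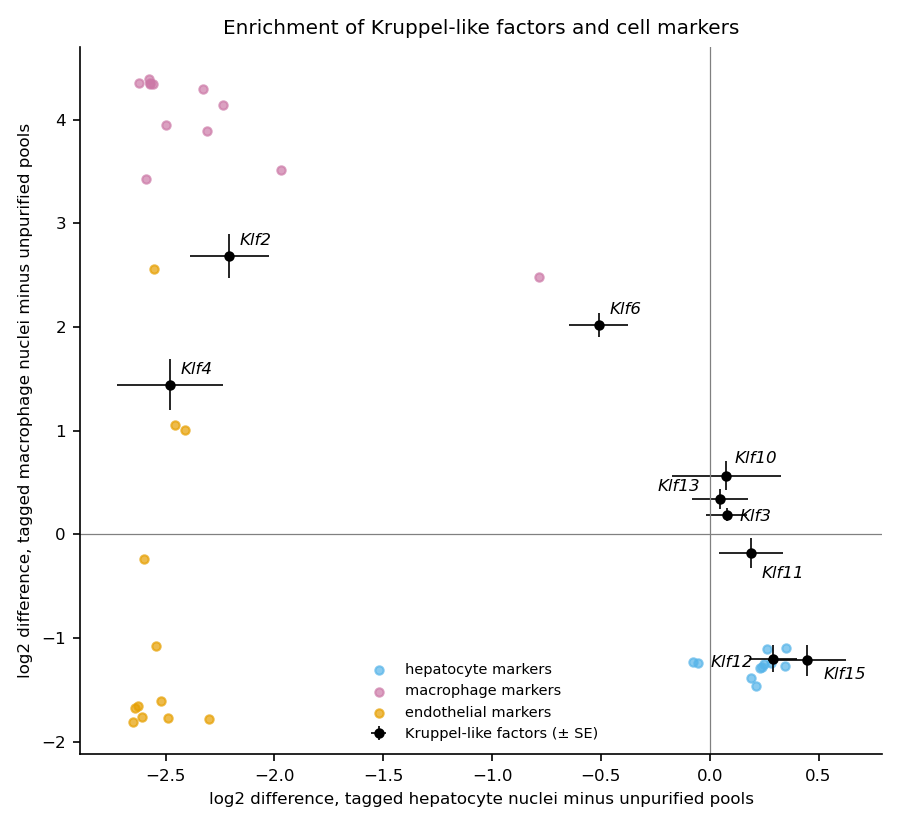
Log2 differences between tagged nuclei and unpurified pools for the 9 Kruppel-like factors (black, bars are standard errors) and for hepatocyte, macrophage and endothelial markers, with the hepatocyte line on the x axis and the macrophage line on the y axis. Klf12 and Klf15 sit among the hepatocyte markers, while Klf2, Klf4 and Klf6 are lower in tagged hepatocyte nuclei and higher in tagged macrophage nuclei.

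Fasting effects were called for more members in hepatocyte nuclei at 3 h than at any other time or in macrophage nuclei. Klf11, Klf10, Klf13, Klf6 and Klf3 were higher in fasted than in fed libraries, 5 of the 8 members that passed the filter on low counts, and none was lower. Of all 12942 genes tested, 19.5% were higher and 20.4% lower. The members' median log2 fold change was 0.99, against -0.03 over all genes. Fasted and fed libraries did not overlap, in either direction, for 40.9%, 37.1%, 15.8% and 25.3% of all genes tested at 3, 8, 16 and 24 h. Separations of single members below stand beside these shares. Klf4 did not pass the filter in hepatocyte nuclei and was not tested there.

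Klf11, a TGF-beta-inducible repressor, had the largest change. It was at 26.7, 23.5, 29.1 and 39.9 CPM in fasted libraries at 3 h, against 4.49, 4.97, 3.82 and 3.28 CPM in fed ones. Every fasted library lay above every fed one by more than the whole spread of the fed group. The fold change was 7.13 (log2 2.83 ± 0.31, edgeR adjusted p = 6.48e-08). At 8 h it was at 23.2, 23.0, 35.8 and 26.1 CPM in fasted libraries, against 4.46, 5.996, 5.78 and 7.45 CPM in fed ones, a 4.55-fold difference (log2 2.19 ± 0.30, edgeR adjusted p = 1.96e-06). By 16 h the groups overlapped, with 15.02, 17.6, 13.6 and 16.4 CPM in fasted libraries against 16.3, 14.1, 4.34 and 16.4 CPM in fed ones, and the change of 0.29 ± 0.28 did not pass the test. At 24 h Klf11 was higher again, by 0.996 ± 0.29 (edgeR adjusted p = 0.0132), with 16.3, 16.3, 15.5 and 25.4 CPM in fasted libraries against 4.27, 10.6, 11.0 and 10.7 CPM in fed ones. This call was lost without the highest fasted library, replicate 4 (adjusted p = 0.055), or without the lowest fed library, replicate 1 (adjusted p = 0.0691).

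Klf10, the other TGF-beta-inducible member and a clock-controlled gene of liver, followed Klf11 at the early times. Its fasted libraries had 42.2, 25.9, 37.7 and 52.9 CPM at 3 h, against 7.24, 19.5, 5.88 and 13.3 CPM in fed ones. The groups did not overlap, but the fed libraries spread widely. The fold change was 3.43 at 3 h (log2 1.78 ± 0.50, edgeR adjusted p = 0.00548) and 2.86 at 8 h (log2 1.51 ± 0.50, edgeR adjusted p = 0.0173). At 8 h its fasted libraries had 28.5, 21.2, 48.2 and 29.4 CPM and its fed libraries 12.3, 17.6, 5.71 and 8.88 CPM. The call at 8 h was lost without fasted replicate 3 (adjusted p = 0.0679) or fed replicate 3 (adjusted p = 0.0579). At 16 and 24 h the log2 fold changes were 0.52 ± 0.50 and 0.01 ± 0.49, and neither passed the test.

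Klf6 had 9.40, 9.33, 9.13 and 10.3 CPM in fasted libraries at 3 h, against 5.27, 3.67, 3.60 and 4.09 CPM in fed ones. The 4 fasted libraries agreed closely and all lay above the fed group. It rose by 1.19 ± 0.25 (edgeR adjusted p = 4.38e-04). Its estimate was 0.64 ± 0.26 at 8 h, -0.69 ± 0.25 at 16 h and -0.61 ± 0.26 at 24 h, none of which passed the test (edgeR adjusted p = 0.0511, 0.059 and 0.0875). At 16 h all fasted libraries lay below all fed ones, with 4.31, 5.002, 3.3 and 4.87 CPM in fasted libraries against 6.05, 6.68, 7.45 and 7.90 CPM in fed ones. DESeq2 called Klf6 higher at 8 h and lower at 16 h (adjusted p = 0.0317 and 0.0403), and edgeR called it higher at 8 h with RLE scaling or with library-number runs as a term (adjusted p = 0.0454 and 0.0465). The edgeR test called it higher at 8 h without fasted replicate 1 or fed replicate 3 or 4, and lower at 24 h without fed replicate 4 (adjusted p = 0.0265, 0.0105, 0.0488 and 0.0145).

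**Figure D2:**
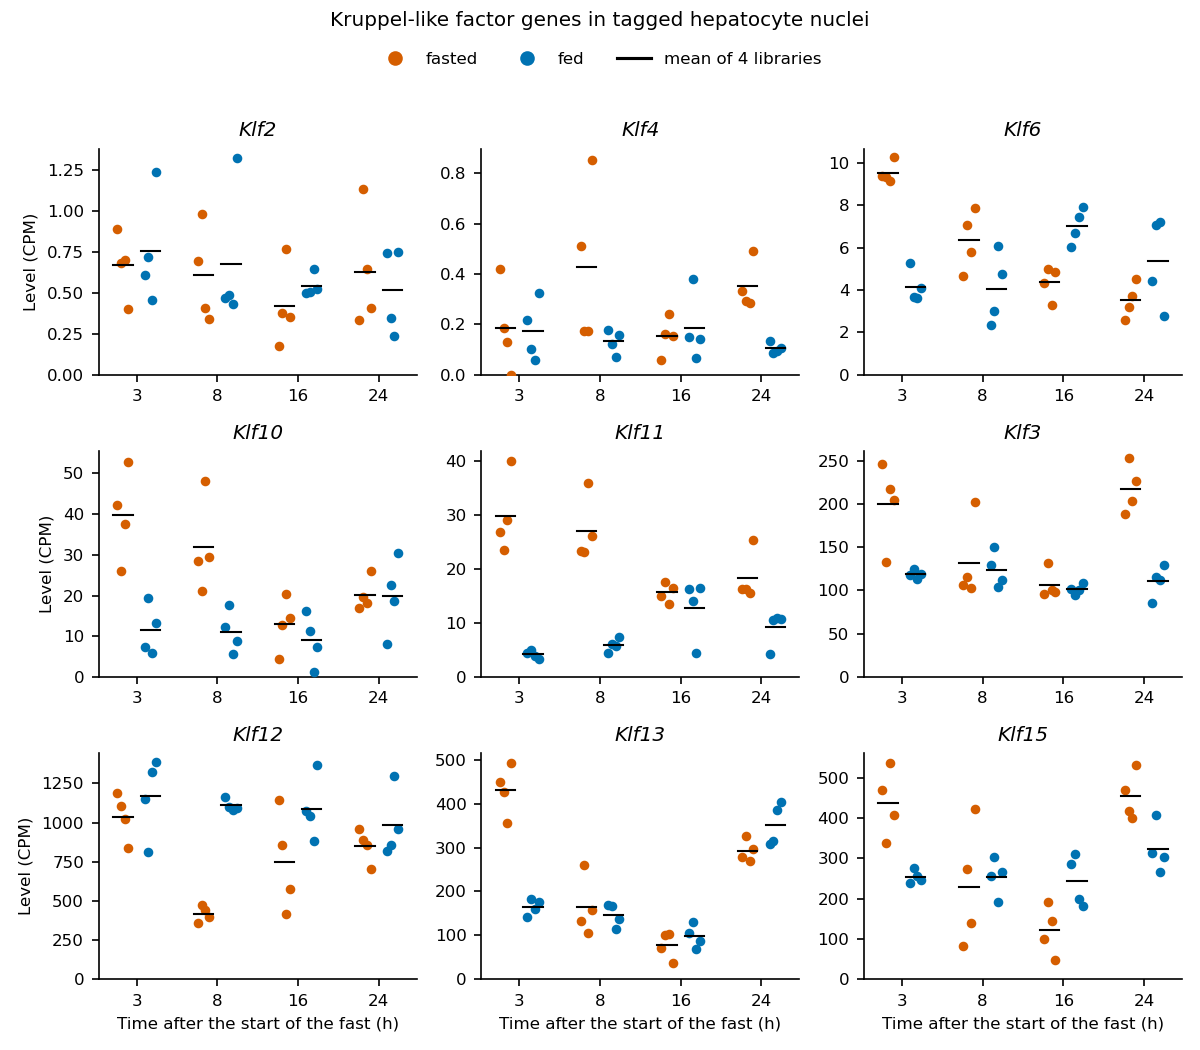
Levels of the 9 members in tagged hepatocyte nuclei in CPM by time, with fasted libraries in orange to the left and fed libraries in blue to the right, each point 1 library and each line the mean of 4. Klf11 sits at 23.5 to 39.9 CPM in fasted and 3.28 to 4.97 CPM in fed libraries at 3 h, and Klf12 at 359 to 474 CPM in fasted and 1081 to 1161 CPM in fed libraries at 8 h.

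Among the repressors that use CtBP, Klf3 and Klf12 changed at different times. Klf3 was at 246, 132, 217 and 205 CPM in fasted libraries at 3 h, against 118, 125, 113 and 118 CPM in fed ones, and at 188, 252, 203 and 226 CPM in fasted libraries at 24 h, against 85.0, 116, 112 and 129 CPM in fed ones. Fasted and fed libraries were apart at both times, and overlapped at 8 and 16 h. It rose by 0.75 ± 0.18 at 3 h and by 0.97 ± 0.18 at 24 h (edgeR adjusted p = 0.00161 and 3.39e-04), and had 0.09 ± 0.18 at 8 h and 0.07 ± 0.18 at 16 h. Klf3 overlaps the transcripts C230096K16Rik on the same strand and Gm20033 on the other, over 6.47% and 2.24% of its span, and reads there cannot be assigned to one gene.

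Klf12 fell at 8 h to 359, 474, 442 and 396 CPM in fasted libraries, against 1161, 1102, 1081 and 1095 CPM in fed ones. The fed libraries lay close together and the fasted group lay wholly below them. The log2 fold change was -1.41 ± 0.22 (edgeR adjusted p = 1.11e-05), a 2.66-fold lower level. At 3, 16 and 24 h its log2 fold changes were -0.17 ± 0.22, -0.54 ± 0.22 and -0.21 ± 0.22, and none passed the test. The fasted libraries at 16 h spread over 414 to 1142 CPM, and without the highest of them, replicate 1, the change was -0.82 and passed (edgeR adjusted p = 0.00716). Klf12 was the 1 member lower at 8 h, where Klf10 and Klf11 were the 2 higher ones, against 20.7% of all genes lower and 18.0% higher.

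Klf13 rose at 3 h alone among the 4 times tested in hepatocyte nuclei. It had 450.3, 427, 357 and 492 CPM in fasted libraries, against 142, 183, 159.5 and 175 CPM in fed ones, without overlap. The fold change was 2.62 (log2 1.39 ± 0.25, edgeR adjusted p = 6.09e-05). At 8, 16 and 24 h the estimates were 0.16 ± 0.24, -0.33 ± 0.25 and -0.27 ± 0.24. The gene E030018B13Rik lies on the opposite strand within 7.01% of the span of Klf13, and the strand setting of the counting is unknown here.

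Klf15 had higher estimates in fasted libraries at 3 and 24 h, which did not pass the test, and was called lower at 16 h. Its fasted libraries at 3 h had 470.2, 337, 536 and 408 CPM, against 238, 277, 255 and 246 CPM in fed ones. All fasted libraries lay above all fed ones, as they did for 20.5% of all genes. The fit across 32 libraries gave 0.79 ± 0.34, which did not pass the test (edgeR adjusted p = 0.0709), whereas DESeq2 (adjusted p = 0.045) and a fit to the 8 libraries of that time alone (edgeR adjusted p = 0.00129) called it higher, as did the fit without fasted replicate 2 (edgeR adjusted p = 0.0468). At 16 h it had 99.6, 192, 145 and 46.7 CPM in fasted libraries, against 287, 309, 198 and 180.4 CPM in fed ones, and only 1 fasted library reached into the fed range. It fell by 1.01 on the log2 scale (SE 0.35, edgeR adjusted p = 0.0411). That was the 1 member called at 16 h, against 8.55% of all genes lower and 9.55% higher. The call was lost in 5 of 8 fits that left out a library, namely fasted replicate 1, 3 or 4 or fed replicate 1 or 2, with adjusted p of up to 0.13, and also without the filter on low counts (adjusted p = 0.0551) and in the fit to the 8 libraries of that time alone (adjusted p = 0.138). At 24 h its fasted libraries had 470.5, 417, 401 and 532 CPM and its fed libraries 313, 408, 266 and 302 CPM, a change of 0.50 ± 0.34 that did not pass the test (edgeR adjusted p = 0.31) and passed in the fit to the 8 libraries of that time alone (edgeR adjusted p = 0.0333). At 8 h the fasted libraries ran over 81.6 to 423 CPM, and the sum of hepatocyte markers in the same libraries ran over 9280 to 27360 CPM.

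Klf2 and Klf4, the endothelial and macrophage members, were near the limit of detection in hepatocyte nuclei. Klf2 had 0.175 to 1.32 CPM over the 32 libraries and log2 fold changes of -0.14 ± 0.45, -0.14 ± 0.46, -0.32 ± 0.48 and 0.35 ± 0.47 at 3, 8, 16 and 24 h. Klf4 had at most 0.854 CPM, and 1 library had none of its reads. At 24 h Klf4 was at 0.333, 0.293, 0.286 and 0.491 CPM in fasted libraries, against 0.136, 0.086, 0.0942 and 0.107 CPM in fed ones, with no test. The count at 24 h was 2 members higher, Klf3 and Klf11, and none lower, against 11.6% and 12.4% of all genes.

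Whether the fasting effect differed between the 4 times was tested directly. In hepatocyte nuclei it did for 6 of the 8 members tested, against 32.8% of all genes, with edgeR adjusted p of 1.20e-04 for Klf11, 2.88e-04 for Klf6, 0.00108 for Klf13, 0.00697 for Klf12, 0.0102 for Klf3 and 0.021 for Klf15. Klf10 (edgeR adjusted p = 0.12) and Klf2 (edgeR adjusted p = 0.824) did not pass, though Klf10 did without fed replicate 3 of the 16 h group (adjusted p = 0.0356). In macrophage nuclei the effect differed between times for Klf13 (edgeR adjusted p = 0.00648), 1 of 9 members, against 4.65% of all 13864 genes tested. Its effect there was present at 3 and 8 h and not called at 16 or 24 h.

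**Figure D3:**
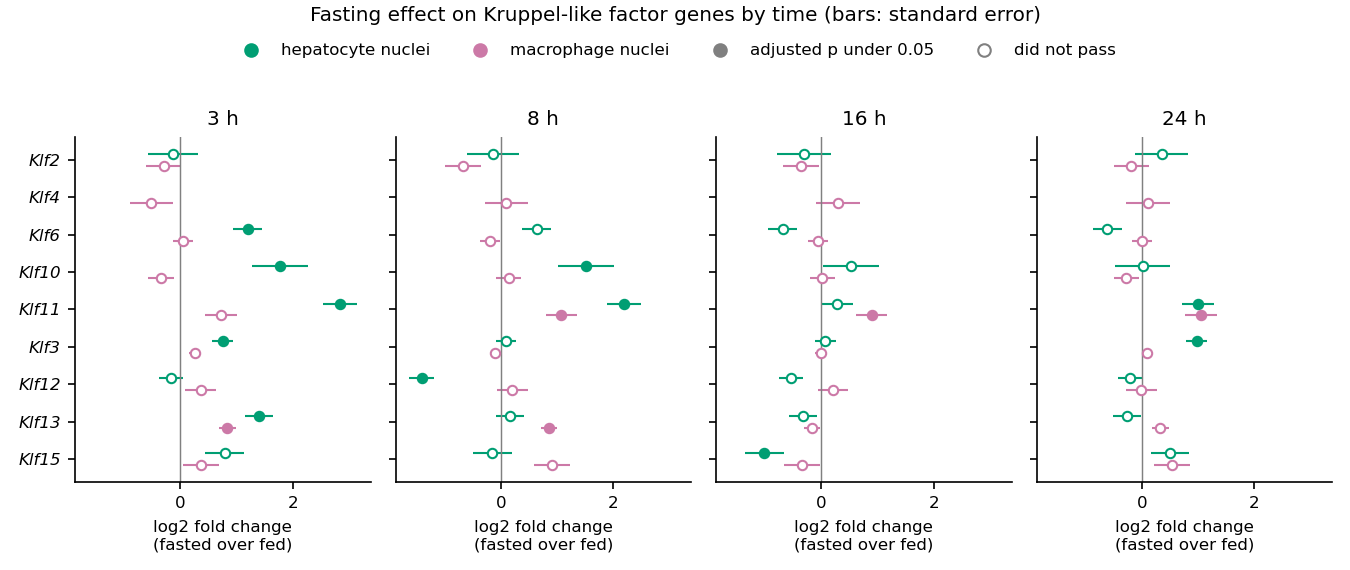
Fasting effects of the members (log2, bars are standard errors) at 3, 8, 16 and 24 h, in hepatocyte nuclei (green) and macrophage nuclei (pink). Filled points passed an adjusted p of 0.05, and the hepatocyte changes of Klf11 reach 2.83 at 3 h and 2.19 at 8 h.

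In macrophage nuclei the members called were Klf13 and Klf11. At 3 h Klf13 was higher, at 8 h Klf13 and Klf11, and at 16 and 24 h Klf11, with no member lower at any time. Of all 13864 genes, 7.70% were higher and 4.68% lower at 3 h, 7.44% were higher and 5.40% lower at 8 h, 7.72% and 5.99% at 16 h, and 5.31% and 6.35% at 24 h. The members' median log2 fold change was 0.25, 0.14, -0.01 and 0.09 at these times, against -0.05, 0.01, 0.04 and 0.00 over all genes.

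Klf13 was at 412, 416, 266 and 404 CPM in fasted macrophage libraries at 3 h, against 219, 198, 176 and 246 CPM in fed ones. The fasted replicate 3 stood apart from the other fasted libraries but still above the fed group. The change was 0.84 ± 0.15 (edgeR adjusted p = 4.42e-04), and with the 8 libraries of that time alone it was of the same size and missed the threshold (edgeR adjusted p = 0.0523). At 8 h it had 342, 431, 399.5 and 424 CPM in fasted libraries, against 216, 219.8, 238 and 211 CPM in fed ones, a change of 0.85 ± 0.15 (edgeR adjusted p = 3.84e-04). At 16 h the estimate was -0.17 ± 0.15 and at 24 h 0.33 ± 0.15, and neither passed. Klf3 also lay apart at 3 h, with 174, 172, 211 and 204 CPM in fasted libraries against 159.5, 159, 155 and 166 CPM in fed ones, and its change of 0.25 ± 0.09 missed the threshold (edgeR adjusted p = 0.0685) and passed it with DESeq2 (adjusted p = 0.0324). Without fasted replicate 2, Klf3 and Klf11 were called beside Klf13 at 3 h (adjusted p = 0.0335 and 0.0475), and without fasted replicate 1 Klf3 was (adjusted p = 0.0434). At 24 h Klf13 was called without fed replicate 3 (adjusted p = 0.0316). Of 11 hepatocyte markers 2 were higher in the fasted libraries at 3 h (median 0.51), and their part was not tested.

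Klf11 was higher in fasted macrophage libraries by 1.07 ± 0.28 at 8 h, 0.89 ± 0.28 at 16 h and 1.05 ± 0.28 at 24 h (edgeR adjusted p = 0.0116, 0.0319 and 0.0131). At 8 h the levels were 10.2, 13.9, 16.9 and 20.6 CPM in fasted libraries, against 7.91, 6.29, 6.20 and 8.78 CPM in fed ones. At 24 h they were 10.2, 14.5, 11.4 and 12.1 CPM in fasted libraries, against 3.66, 7.83, 4.02 and 7.60 CPM in fed ones. The groups did not overlap at either time. At 16 h the levels were 11.5, 19.2, 11.5 and 18.4 CPM in fasted libraries, against 4.91, 11.5, 7.13 and 8.99 CPM in fed ones, where the lowest fasted and the highest fed library nearly met. The call at 8 h was lost without fasted replicate 4 (adjusted p = 0.052), that at 24 h without fed replicate 1 (adjusted p = 0.0646), and that at 16 h in 5 of 8 fits that left out a library, fasted replicate 2 or 4 or fed replicate 1, 3 or 4 (adjusted p up to 0.123). At 3 h the change was 0.73 ± 0.28 and did not pass (edgeR adjusted p = 0.086). Hepatocyte markers were higher in the same fasted libraries, with 6 of 11 called at 8 h (median 0.67), 3 at 16 h (median 0.34) and 1 at 24 h (median 0.29), and their part in these results was not tested.

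Klf15 in macrophage nuclei had 109, 122, 211 and 104 CPM in fasted libraries at 8 h, against 54.0, 64.4, 80.3 and 93.0 CPM in fed ones. The groups did not overlap, and the change of 0.90 ± 0.32 missed the threshold (edgeR adjusted p = 0.0632) and passed it with DESeq2 (adjusted p = 0.0401). Of 11 hepatocyte markers 6 were called higher in the same fasted libraries (median 0.67), and their part in the Klf15 values was not tested. Klf2, Klf6 and Klf4, the members enriched in these nuclei, did not pass the test at any time. Their log2 fold changes ran from -0.67 to -0.19 for Klf2, from -0.19 to 0.05 for Klf6 and from -0.52 to 0.29 for Klf4. At 3 h Klf4 was at 1.71, 1.79, 1.14 and 1.92 CPM in fasted libraries, all below the 2.01, 2.02, 2.96 and 2.52 CPM of fed ones, without passing the test (edgeR adjusted p = 0.364). Klf10, Klf3 and Klf12 had estimates between -0.34 and 0.36, and none passed by edgeR.

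**Figure D4:**
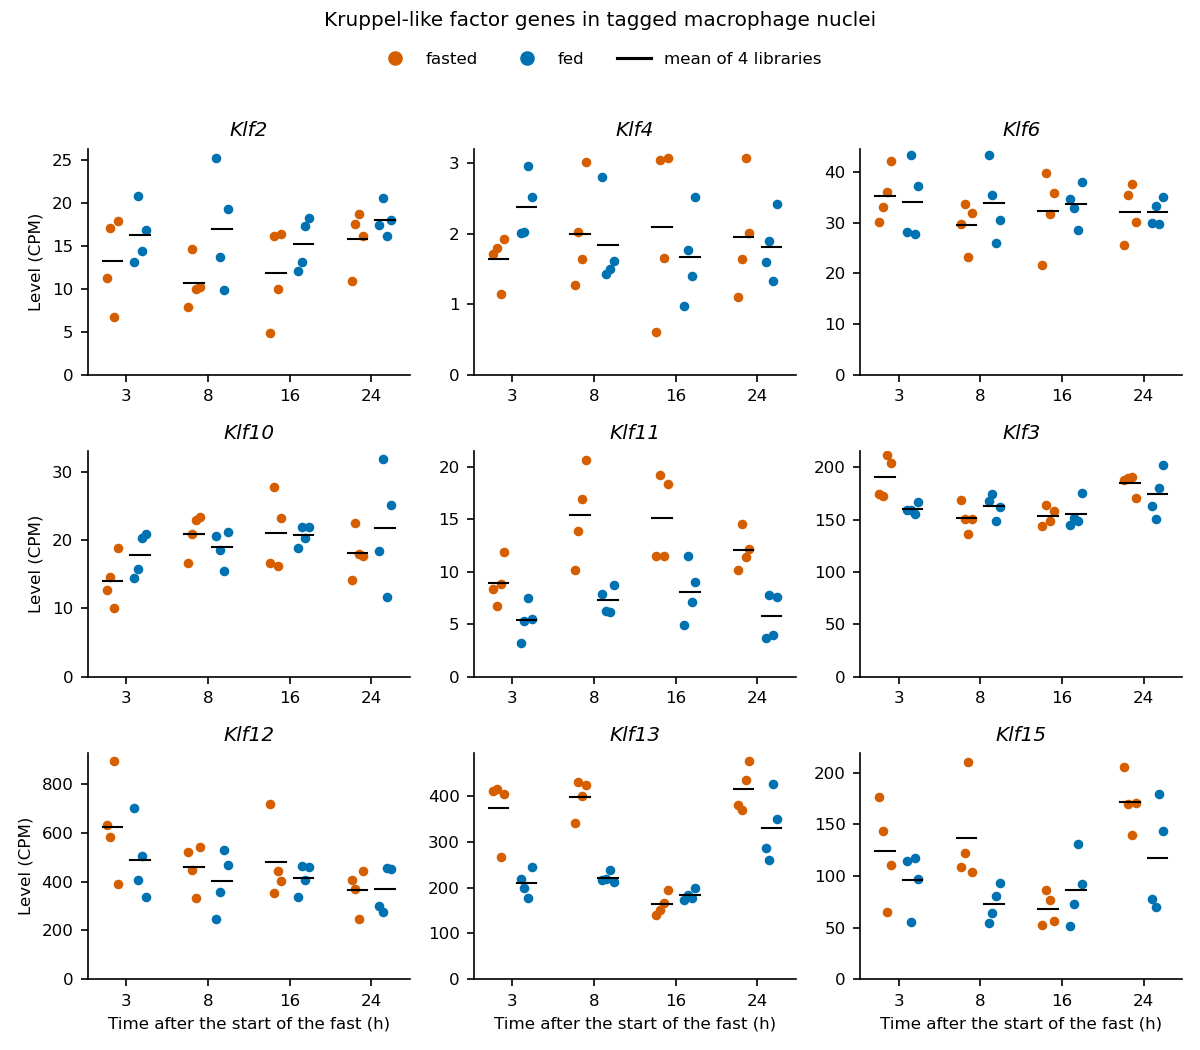
Levels of the 9 members in tagged macrophage nuclei in CPM by time, with fasted libraries in orange to the left and fed libraries in blue to the right, each point 1 library and each line the mean of 4. Klf13 separates fasted from fed libraries at 3 and 8 h and Klf11 at 8, 16 and 24 h, while Klf2, Klf6 and Klf10 overlap at all times.

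The fasting effects of the cell types were compared in a fit to all 64 tagged libraries, as the hepatocyte effect minus the macrophage effect. At 3 h the difference was 2.16 ± 0.55 for Klf10, 2.15 ± 0.42 for Klf11 and 1.19 ± 0.32 for Klf6 (edgeR adjusted p = 0.00761, 5.57e-04 and 0.00976). These 3 of 9 members stood against 10.6% of 14011 genes, and Klf3 joined them without hepatocyte fasted replicate 2 (adjusted p = 0.0155). At 8 h the difference was -1.55 ± 0.35 for Klf12 (edgeR adjusted p = 0.00304), 1 member against 7.62% of genes, and a second member was called in 6 of 16 fits that left out a library. It was Klf6 without hepatocyte fasted replicate 1 or fed replicate 3 or macrophage fed replicate 3, Klf13 and Klf15 without hepatocyte fasted replicate 2 and 4, and Klf11 without macrophage fasted replicate 4. At 24 h it was 0.88 ± 0.21 for Klf3 (edgeR adjusted p = 0.0109), 1 member against 4.05% of genes. At 16 h 0 members passed by edgeR or DESeq2, and 0 had an unadjusted p under 0.05 by edgeR, where 0.535% of genes passed. Klf13 had 0.60 ± 0.29, -0.62 ± 0.29, -0.09 ± 0.29 and -0.61 ± 0.29 over the 4 times, and none passed.

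The lines also differed in their unpurified nuclei. At 3 h Klf10 was at 28.7 CPM in the fasted and 9.89 CPM in the fed pool of the hepatocyte line, and at 12.2 CPM in the fasted and 10.4 CPM in the fed pool of the macrophage line. Klf11 at 3 h was at 25.8 CPM fasted and 3.67 CPM fed in the hepatocyte line, and at 9.55 CPM fasted and 4.75 CPM fed in the macrophage line. In both genes the fasted and fed pools lay further apart in the hepatocyte line. At 8 h Klf12 was at 349 CPM fasted and 989 CPM fed in the hepatocyte line, and at 961 CPM fasted and 1186 CPM fed in the macrophage line. Klf13 at 8 h was at 151.5 CPM fasted and 133 CPM fed in the hepatocyte line, and at 279.5 CPM fasted and 151.5 CPM fed in the macrophage line. Klf6 at 3 h differed little in either, with 8.66 CPM fasted and 9.30 CPM fed in the hepatocyte line, and 7.28 CPM fasted and 7.01 CPM fed in the macrophage line. With 1 pool per line and condition these values carry no test. The libraries of each line, pools included, also form their own series of library numbers. Line, library series and cell type therefore cannot be told apart in the differences of effects above.

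**Figure D5:**
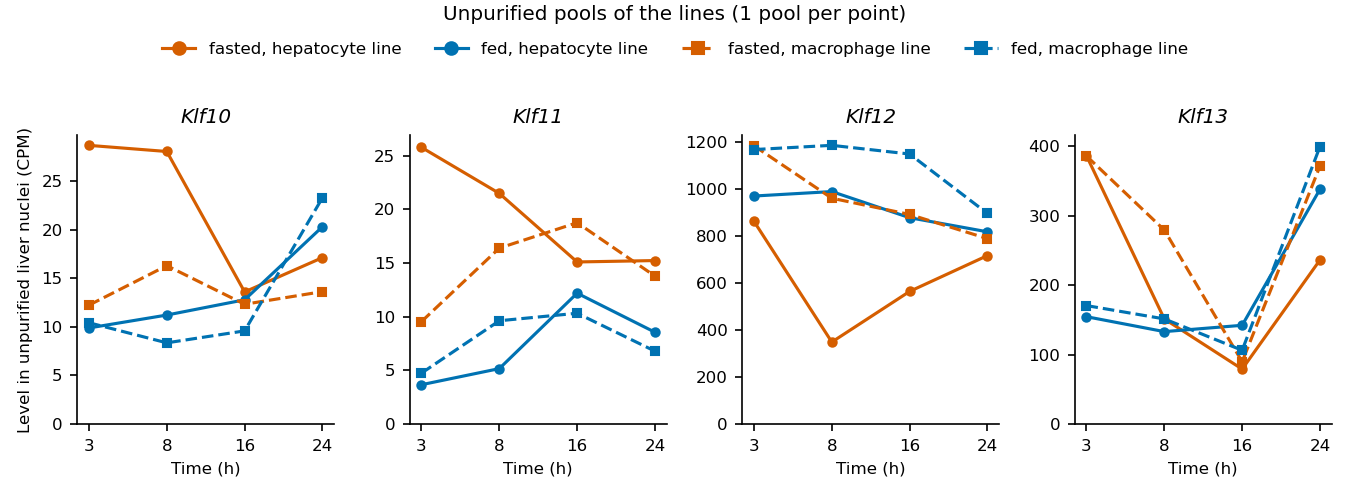
Levels of Klf10, Klf11, Klf12 and Klf13 in unpurified liver nuclei in CPM by time, 1 pool per point, fasted in orange and fed in blue, with the hepatocyte line as solid lines with circles and the macrophage line as dashed lines with squares. At 3 h Klf10 is at 28.7 CPM in the fasted pool of the hepatocyte line and at 12.2 CPM in that of the macrophage line, and at 8 h Klf12 is at 349 and 961 CPM in these pools.

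Over all 16 pools, with line and time as terms, the mean fasting effect passed the test for Klf11 at 1.20 ± 0.24 and for Klf3 at 0.32 ± 0.11 (edgeR adjusted p = 0.00274 and 0.0384). These were 2 of 9 members higher and none lower, against 12.1% and 14.9% of 13562 genes. Klf11 was higher in the fasted pool than in the fed pool of the same line at all 4 times in both lines. Klf12 had -0.40 ± 0.14 and missed the threshold (edgeR adjusted p = 0.055), which it passed with DESeq2 (adjusted p = 0.0304).

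Time of day in fed mice was tested over the 4 fed groups of a cell type. In hepatocyte nuclei 3 of 8 members differed, against 30.1% of genes. Klf13 averaged 165 ± 18.4 CPM at 3 h, 147 ± 26.2 at 8 h, 97.7 ± 25.7 at 16 h and 353 ± 48.7 at 24 h (edgeR adjusted p = 9.07e-06). Klf11 averaged 4.14 ± 0.742, 5.92 ± 1.22, 12.8 ± 5.73 and 9.14 ± 3.25 CPM at these times (edgeR adjusted p = 6.17e-04). Klf6 passed at edgeR adjusted p = 0.042, and that call was lost in 8 of 16 fits that left out 1 fed library, replicate 2, 3 or 4 at 3 h, 1 or 2 at 8 h, or 2, 3 or 4 at 16 h. In macrophage nuclei Klf13 alone of the 9 members differed between fed groups, against 12.8% of genes. It averaged 210 ± 29.8, 221 ± 11.7, 184 ± 11.6 and 331 ± 74.0 CPM at 3, 8, 16 and 24 h (edgeR adjusted p = 6.49e-04), so that its highest fed level fell at zeitgeber time 12 in both cell types. The part of hepatocyte RNA in the macrophage values was not tested.

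Over the 4 fasted groups, 7 of 8 members differed in hepatocyte nuclei, all but Klf2, against 44.9% of genes. Klf13 averaged 432 ± 56.5 CPM at 3 h, 164 ± 67.0 at 8 h, 77.8 ± 31.2 at 16 h and 293 ± 25.6 at 24 h (edgeR adjusted p = 1.52e-07). Klf15 averaged 438 ± 85.1, 229 ± 152, 121 ± 62.0 and 455 ± 59.4 CPM at these times (edgeR adjusted p = 2.33e-04), so that its lowest fasted level fell at 16 h. The call of Klf10 (edgeR adjusted p = 0.0379) was lost in 7 of 16 fits that left out 1 fasted library, replicate 1, 3 or 4 at 3 h, 3 at 8 h, or 1, 2 or 4 at 16 h, with adjusted p of up to 0.0994. In macrophage nuclei 3 of 9 members differed, against 38.1% of genes: Klf13, Klf3 and Klf15 (edgeR adjusted p = 8.69e-07, 0.00614 and 0.0147). Klf15 there missed the threshold without fasted replicate 1 of the 16 h group (adjusted p = 0.0547), while Klf11 passed without fasted replicate 1 of the 8 h group and Klf12 without fasted replicate 4 of the 3 h group (adjusted p = 0.0448 and 0.04998). Hours of fasting and time of day cannot be told apart among fasted groups.

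The genes whose group means ran most like those of a member were taken over the 8 tagged groups of a cell type, as Pearson correlations of log2 CPM that describe the pattern only. In hepatocyte nuclei these were Vamp8 and Ppm1d for Klf11 (0.988 and 0.986), BC049352 and Glb1 for Klf12 (0.99 and 0.976), and Dhrs11 and Abca9 for Klf3 (0.972 and 0.97). In macrophage nuclei they were Plk3 and Nt5dc2 for Klf13 (0.99 and 0.987), Tnfaip8l1 and Yipf4 for Klf11 (0.995 and 0.986), and Dtx2 and Atp1b1 for Klf15 (0.974 and 0.967). All points of a cell type share the same 32 libraries.

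Of 17 other Klf and Sp genes, 9 were tested in hepatocyte nuclei and 10 in macrophage nuclei. Klf9, a glucocorticoid-responsive member linked to the clock, rose in hepatocyte nuclei by 2.10 ± 0.29 at 3 h and 0.90 ± 0.28 at 8 h, and in macrophage nuclei by 1.55 ± 0.20, 1.72 ± 0.20, 0.79 ± 0.20 and 1.07 ± 0.20 at 3, 8, 16 and 24 h (edgeR adjusted p at most 0.012). It was the 1 gene of the list called in macrophage nuclei at each time, of 10 tested. Over all genes 12.4%, 12.8%, 13.7% and 11.7% were called there in either direction. Klf9 averaged 107.5 CPM in tagged macrophage nuclei, 159 CPM in the pools of that line and 176.7 CPM in tagged hepatocyte nuclei. The part of hepatocyte RNA in its macrophage values was not tested. In hepatocyte nuclei 2 rose and 2 fell at 3 h, 4 rose and 2 fell at 8 h, and 1 rose at 16 h, of 9 tested. Over all genes 39.9% were called in either direction at 3 h, 38.7% at 8 h and 18.1% at 16 h. Sp3, a broadly expressed relative that competes with Sp1, rose by 0.39 ± 0.10 at 3 h, 0.62 ± 0.10 at 8 h and 0.35 ± 0.10 at 16 h (edgeR adjusted p at most 0.0163). Sp4 fell by 0.83 and 0.72 on the log2 scale at 3 and 8 h, and Klf7 by 0.73 and 0.49 (edgeR adjusted p at most 0.0344). Sp1 and Sp2 rose at 8 h by 0.33 and 0.36 (edgeR adjusted p = 0.0113 and 0.0401).

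Of 13 amino acid and glucose genes that Klf15 is known to act on or that belong to the same programme, all 13 were tested in both cell types. In hepatocyte nuclei 7 rose and 1 fell at 3 h, 4 rose and 2 fell at 8 h, 1 rose at 16 h, and 4 rose and 1 fell at 24 h. Over all genes 19.5% rose and 20.4% fell at 3 h, 18.0% and 20.7% at 8 h, 9.55% and 8.55% at 16 h, and 11.6% and 12.4% at 24 h. Their median log2 fold change was 1.17, 0.58, -0.47 and 0.27 at these times. Tdo2, which opens tryptophan breakdown, rose at all 4 times, by 1.78 ± 0.27, 2.06 ± 0.27, 0.98 ± 0.26 and 1.16 ± 0.26. Ppargc1a, a coactivator of gluconeogenic genes, rose by 2.41 ± 0.55 at 3 h, 1.70 ± 0.54 at 8 h and 2.37 ± 0.55 at 24 h (edgeR adjusted p at most 0.0135 for both genes). In macrophage nuclei 6 rose and 1 fell at 3 h, 3 rose and 1 fell at 8 h, 2 rose at 16 h and 1 rose at 24 h, against 7.70%, 7.44%, 7.72% and 5.31% of all genes higher. Ppargc1a rose there at each time, by 1.08 to 2.35. Of these 13 genes, 12 were lower in tagged macrophage nuclei than in the pools, with a median difference of -1.12 beside the -1.25 of hepatocyte markers, and the part of hepatocyte RNA in their macrophage values was not tested.

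Of 6 genes tied to TGF-beta and to Klf10, Klf11 or Klf6, 2, 4, 3 and 2 rose in hepatocyte nuclei at 3, 8, 16 and 24 h and none fell, against 19.5%, 18.0%, 9.55% and 11.6% of all genes higher. Cdkn1a, a cell cycle inhibitor that Klf6 activates, rose at each time, by 4.76 ± 0.74, 2.57 ± 0.63, 3.29 ± 0.74 and 5.42 ± 0.84 (edgeR adjusted p at most 0.00247), and Bcl2l11, an apoptosis gene, rose at 3, 8 and 24 h by 0.63, 0.92 and 1.34. In macrophage nuclei none was called at 3 h by edgeR, with 2 at an unadjusted p under 0.05, 2 rose and 1 fell at 8 h, 2 rose at 16 h and 1 rose at 24 h, against 7.70%, 7.44%, 7.72% and 5.31% of all genes higher. Of 8 endothelial genes known as targets of Klf2 or Klf4, 6 were tested. In hepatocyte nuclei 1 rose and 1 fell at 3 h, 2 rose and 1 fell at 8 h and at 24 h, and in macrophage nuclei 2 rose at 3, 8 and 24 h, against the same shares of all genes. Of the 12 endothelial markers, 1, 3, 2 and 5 were higher in fasted hepatocyte libraries at 3, 8, 16 and 24 h (medians 0.11, 0.36, -0.21 and 0.51) and 2, 4, 0 and 3 in fasted macrophage libraries (medians 0.18, 0.42, 0.10 and 0.02), with none lower, and their part in these counts was not tested. Vcam1, an adhesion molecule, rose at 3, 8 and 24 h in both cell types, by 1.11 to 1.42 in hepatocyte and 1.26 to 2.52 in macrophage nuclei. S1pr1, a receptor of sphingosine 1-phosphate, fell in hepatocyte nuclei by 1.76, 2.19 and 0.75 on the log2 scale at these times, and Thbd, thrombomodulin, rose in macrophage nuclei by 0.91, 1.20 and 1.42 (edgeR adjusted p at most 0.0462). Klf2 did not pass the test at any of these times in either cell type, nor did Klf4 in macrophage nuclei, where it was tested.

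The authors' deposited tables of selected genes list Klf12 and Klf15 among 4745 genes for hepatocytes and Klf2, Klf4 and Klf6 among 3762 genes for macrophages. In the authors' deposited table for hepatocytes, Klf12 had a log2 fold change of -1.37 at 8 h (adjusted p = 4.93e-07) and Klf15 one of -1.01 at 16 h (adjusted p = 0.0229). At 3 h the authors' deposited table gave 0.79 for Klf15, at an adjusted p of 0.0608. For Klf2, Klf4 and Klf6 the authors' deposited table for macrophages gave adjusted p of 0.18 or more at every time.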

How the data were processed

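Nuclear RNA-seq of 64 tagged and 16 unpurified libraries was analysed. The authors deposited a table of raw counts for the 80 libraries, and tables of selected genes with signal per library (counts divided by a size factor), log2 fold changes and adjusted p-values. Per the submitters' processing notes, STAR 2.4.2a, DESeq2 1.24.0 and build mm10 were used. The sources used here do not give the counting tool or its strand setting. Listed spans are gene bodies with introns, and that of Klf12 is shorter than its GENCODE vM21 span.

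From the counts, genes were filtered with filterByExpr (minimum count 10, total 15), scaled by TMM and tested with edgeR 4.0.16 in R 4.3.3 (robust quasi-likelihood F-test, Benjamini-Hochberg over all genes tested, threshold 0.05). Standard errors come from the F statistic. Fasting and time used the 32 tagged libraries of a cell type, cell types all 64, purification 32 against 8 pools with condition as a term, and pools line and time. CPM use TMM within tagged hepatocyte, tagged macrophage and pooled libraries, each class set to its mean factor over all 80 libraries. The tests were checked on simulated counts. Alternatives were RLE scaling, no filter, DESeq2 1.42.0, the 8 libraries of a time, a term for runs of consecutive library numbers, and leaving out each library.

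Named are all 9 members, other Klf and Sp genes called in any fasting comparison, genes of 3 further lists called at most of the times of a cell type, and the 2 genes most like each of the 3 members with the smallest joint p per cell type (mean of at least 1 CPM, log2 of CPM plus 0.25). The members, lists and tests were chosen with earlier results of these data known. Replicate numbers follow accession order and pair nothing.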

Additional observations from a re-analysis of the deposited data

Results flagged for a closer look

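In 9 of 144 groups of 4 libraries, 1 library stood apart from the other libraries of its group by Dixon's criterion, which chance meets in about 5% of groups. For Klf2 these were fed hepatocyte replicate 4 at 8 h (1.32 CPM) and fed hepatocyte replicate 3 at 16 h (0.647 CPM), both high. For Klf3 they were fasted hepatocyte replicate 4 at 8 h (202 CPM) and replicate 2 at 16 h (132 CPM), both high, and fasted macrophage replicate 4 at 24 h (171 CPM), which was low. Klf4 was high in fed macrophage replicate 1 at 8 h (2.80 CPM). Klf11 was high in fasted hepatocyte replicate 4 (25.4 CPM) and low in fed hepatocyte replicate 1 (4.27 CPM) at 24 h, and Klf13 was low in fasted macrophage replicate 3 at 3 h (266 CPM).

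The fasting effect differed between the 4 times in hepatocyte nuclei for Klf3, Klf6, Klf11, Klf12, Klf13 and Klf15 (edgeR adjusted p = 0.0102, 2.88e-04, 1.20e-04, 0.00697, 0.00108 and 0.021), and in macrophage nuclei for Klf13 (edgeR adjusted p = 0.00648). It differed between hepatocyte and macrophage nuclei at 3 h for Klf6, Klf10 and Klf11 (edgeR adjusted p = 0.00976, 0.00761 and 5.57e-04), at 8 h for Klf12 (edgeR adjusted p = 0.00304) and at 24 h for Klf3 (edgeR adjusted p = 0.0109).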

How the results depend on the processing

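No called change of a member reversed its direction under any alternative run, while some estimates that did not pass the test changed sign when 1 library was left out. The number of members called in hepatocyte nuclei at 16 h, 1 in the main analysis, was 0 without the filter on low counts, 2 with DESeq2 and 0 with the 8 libraries of that time alone. In macrophage nuclei at 3 h, where it was 1, it was 2 with DESeq2, 2 with library-number runs as a term and 0 with 8 libraries, and at 16 h it was 0 with 8 libraries. RLE scaling gave 3 members, against 5, between tagged and unpurified hepatocyte nuclei. DESeq2 gave 3, against 1, for the difference of effects at 8 h, and the run term gave 5, against 3, over time in fasted macrophage groups. Leaving out 1 library gave 5 to 6 members in hepatocyte nuclei at 3 h, 2 to 4 at 8 h, 0 to 1 at 16 h and 1 to 3 at 24 h, and 1 to 3, 1 to 2, 0 to 1 and 0 to 2 in macrophage nuclei. It gave 6 to 7 between times, 2 to 3 over time in fed and 6 to 7 in fasted hepatocyte groups, and 1, 1 and 2 to 4 in macrophage ones. For the difference of effects it gave 3 to 4, 1 to 2, 0 and 1 at 3, 8, 16 and 24 h. The counts over all genes moved too. In macrophage nuclei at 3 h, 702 genes were called without fasted replicate 3 and 2720 without fasted replicate 2, against 1716. At 8 h there, 702 were called without fasted replicate 3, against 1781. For the difference at 16 h, the count was 24 without macrophage fed replicate 4 and 130 without hepatocyte fasted replicate 2, against 75. Over all genes, DESeq2 called 1645 between times in macrophage nuclei, against 645, and 149 for the difference at 16 h, against 75, where no filter left 48. With 8 libraries alone, 885 genes were called in hepatocyte nuclei at 16 h, against 2343. In macrophage nuclei 247 were called at 3 h, against 1716, and 989 at 16 h, against 1901. Hepatocyte nuclei had 4661 at 8 h, against 5014, and 2705 at 24 h, against 3106, and macrophage nuclei 1757 at 8 h, against 1781. More were called in hepatocyte nuclei at 3 h, 5598 against 5158, and in macrophage nuclei at 24 h, 1963 against 1616. The cause of these shifts was not tested. No paired analysis was possible because the replicate numbers follow accession order. Klf2 and Klf4 in hepatocyte nuclei rest on few counts, at 0.602 and 0.214 CPM on average.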
